A study of Mus musculus with 8 samples.

Results

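The 8 genes Fos, Fosb, Fosl1, Fosl2, Jun, Junb, Jund and Atf3 were examined, which encode the transcription factors FOS, FOSB, FOSL1 and FOSL2 of the Fos family, JUN, JUNB and JUND of the Jun family, and their relative ATF3. They were picked out of the table of all genes by symbol, ignoring case. All 8 were found among the 16980 genes of the table, and all 8 were listed at every time point. Of these, 6 averaged 1 FPKM or more over the libraries, as did 11306 of the 15888 genes listed at every hour, here called expressed genes. FPKM counts the sequenced fragments of a gene per kilobase of its transcript, relative to the depth of the library, so that levels can be compared between genes of different length.

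The levels were measured by mRNA sequencing in Neuro2A (N2A) cells, a mouse neuroblastoma line that grows neurites when its cannabinoid 1 receptor is stimulated. Cells grown in MEM with 10% fetal bovine serum were starved for 16 h in serum-free MEM with 0.1% bovine serum albumin. They then received either 2 µM HU210, an agonist of the cannabinoid 1 receptor dissolved in DMSO, or drug-free DMSO, for 2 h, 4 h, 6 h or 8 h. Each of the 8 conditions is 1 library, made from pooled mRNA of 2 to 3 independent experiments, so a difference at a single time point has no replicate check. The starvation and the medium are common to both arms, no unstarved or untreated library was analysed, and all cells belong to 1 immortal tumour line.

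Fos and Jun proteins are basic leucine zipper factors. A Fos protein cannot pair with itself, whereas a Jun protein pairs with a Fos protein, with another Jun protein or with a factor such as Atf3, and the pair binds DNA as the factor AP-1. Fos, Fosb and Junb are classical immediate-early genes, whose mRNA appears within minutes of a stimulus through factors that are already present and decays quickly. Jun is also activated by stress kinases, Jund is expressed steadily in many cells, and Atf3 is a stress-responsive gene that is induced in injured neurons together with Jun.

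The promoter sequences show which of these genes carry a motif of the cyclic AMP response element next to their start site, a site bound by Creb and Atf factors. RefSeq promoter windows of build GRCm38.p6, from 250 bases before to 50 bases after the start, were matched by symbol for 7 of the 8 genes, with Fosl1 missing. Both strands were searched for TGACG (the core of the element), TGACGTCA (the full element, which contains the core), TGANTCA (the AP-1 site), TGACATCA (a variant known from the Jun promoter), the CArG box (the site of serum response factor) and TTCNNNGAA (the Stat site). The 150 bases before the start are shown 5′ to 3′ for the 5 genes with a match, with TGACG or its complement CGTCA in capitals, or TGACATCA for Jun.
Fos (chr12:85473740-85473889, plus strand): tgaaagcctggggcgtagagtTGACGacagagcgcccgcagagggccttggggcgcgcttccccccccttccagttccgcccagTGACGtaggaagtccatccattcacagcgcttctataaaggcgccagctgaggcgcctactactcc
Fosb (chr7:19310046-19310195, minus strand): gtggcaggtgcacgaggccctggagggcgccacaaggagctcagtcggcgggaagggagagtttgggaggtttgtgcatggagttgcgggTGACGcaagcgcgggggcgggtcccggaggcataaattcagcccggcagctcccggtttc
Jun (chr4:95052223-95052372, minus strand): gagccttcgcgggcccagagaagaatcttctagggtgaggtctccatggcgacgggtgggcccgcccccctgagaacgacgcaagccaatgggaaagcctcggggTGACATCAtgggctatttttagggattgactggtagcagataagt
Junb (chr8:84978749-84978898, minus strand): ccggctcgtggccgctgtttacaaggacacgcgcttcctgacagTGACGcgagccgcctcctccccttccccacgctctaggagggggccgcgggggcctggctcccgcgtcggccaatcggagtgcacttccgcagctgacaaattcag
Atf3 (chr1:191183334-191183483, minus strand): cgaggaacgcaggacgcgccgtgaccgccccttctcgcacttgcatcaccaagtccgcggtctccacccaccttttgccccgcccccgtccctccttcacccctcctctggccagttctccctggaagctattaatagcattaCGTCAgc

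TGACG lay in 4 of the 7 windows, those of Fos, Fosb, Junb and Atf3, against 20.8% of 32851 promoters. It began 129 and 66 bases before the start in Fos, 60 bases before it in Fosb and 106 bases before it in Junb, and its complement lay 7 bases before the start in Atf3. TGACATCA began 45 bases before the start of Jun and occurred in 3.62% of all promoters. The windows of Fosl2 and Jund held none of the 6 motifs. No member window held TGACGTCA, TGANTCA, the CArG box or TTCNNNGAA, which were found in 1.79%, 7.81%, 1.63% and 8.30% of all promoters. Sequence more than 250 bases before or 50 bases after the start was not searched, so a motif missing here can still lie farther off. These are matches of letters and not measured binding sites.

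The Jun family was the more abundant of the pair of families in every library. Averaged over the 8 libraries, Jund had 24.5 ± 2.29 FPKM (SD, n = 8), Junb 21.3 ± 4.43, Jun 12.6 ± 1.06, Fosl2 9.02 ± 1.01, Atf3 7.74 ± 1.5, Fos 1.85 ± 0.380 and Fosb 0.408 ± 0.0709 FPKM. Fosl1 was between 0.0224 and 0.0415 FPKM in 7 libraries and was listed at 0 with DMSO at 4 h. These SDs run over conditions as well as hours. In this order, Jund exceeded Junb in 7 of 8 libraries and Fosl2 exceeded Atf3 in 6 of 8, so these 2 pairs of neighbours overlapped. The other neighbours kept their order in 8 of 8 libraries with ranges that did not overlap, although the highest Jun value, 14.3 FPKM, came close to the lowest Junb value, 14.4 FPKM.

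The summed level of Jun, Junb and Jund ranged from 48.1 to 70.5 FPKM and that of the 4 Fos family genes from 9.80 to 12.9 FPKM, a ratio of 4.76 to 6.09. Fosl2 accounted for 73.4% to 82.8% of the Fos family mRNA. Fos itself made up 22.2% of it with HU210 at 2 h and 14.2% to 18.4% in the other libraries. Within the Jun family, Jund held 38.9% to 46.1%, Junb 29.9% to 42.6% and Jun 18.5% to 23.9%. With HU210 at 2 h and only there, Junb exceeded Jund, at 42.6% against 38.9%. Among all 15888 genes, the mean level with DMSO stood at percentile 78.2 for Jund, 54.5 for Atf3, 32.7 for Fos and 9.65 for Fosl1.

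**Figure D1:**
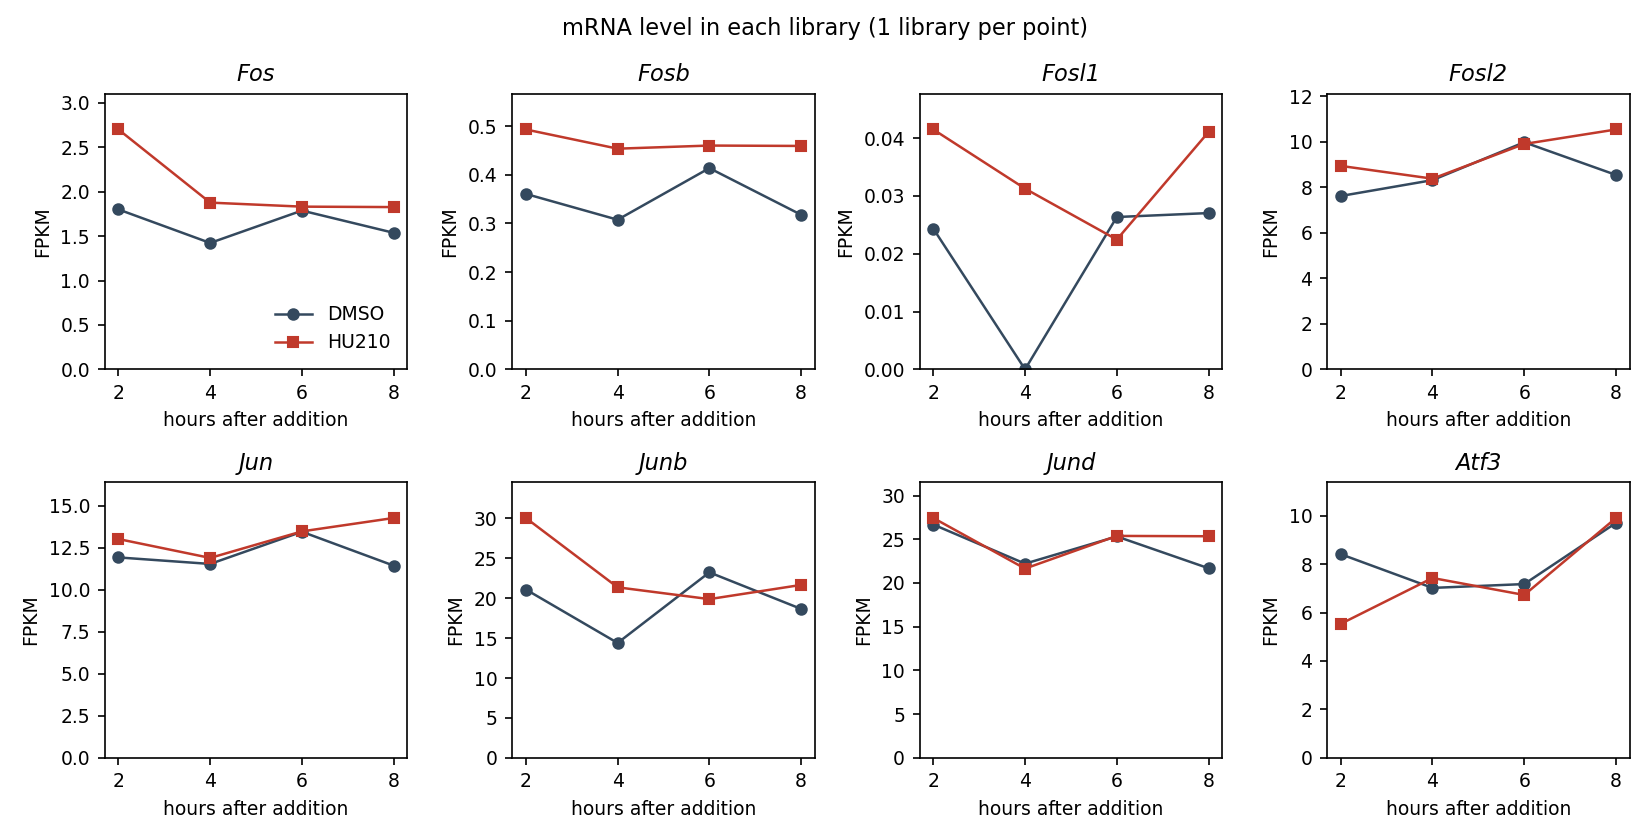
FPKM of the 8 genes (vertical axes, linear and from 0, a different scale for each gene) against hours after addition of HU210 (squares) or DMSO (circles), with 1 library per point. The HU210 points of Fos and Fosb lie above all their DMSO points, Fos and Junb are highest with HU210 at 2 h at 2.70 and 30.1 FPKM, and Atf3 is lowest there at 5.53 FPKM.

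The change with HU210 at a time point is given as log2[(FPKM with HU210 + 1)/(FPKM with DMSO + 1)], a scale on which changes of weakly expressed genes look smaller than they are. None of the 8 genes passed 1.5-fold at any time point, while 2.02%, 8.62%, 2.42% and 1.79% of all listed genes did in order of time. At 1.3-fold, the study's lower limit, Fos and Junb were higher and Atf3 lower with HU210 at 2 h, Junb was higher at 4 h, and none of the 8 passed at 6 h or 8 h. With a pseudocount of 0.1 in place of 1, Fosb (0.44) and Fosl1 (0.39) passed it too at 4 h and Fosb (0.42) at 8 h. In order of time, the 1.3-fold limit was passed by 4.92%, 21.1%, 6.96% and 5.2% of all listed genes. At 2 h, 1.61% of the genes were higher and 3.3% lower by this limit, and at 4 h 6.61% were higher. The count of 3 of 8 at 2 h thus lies above the background, and the count of 1 of 8 at 4 h does not exceed it. The 3 changes at 2 h come from 1 pair of libraries, and the 8 genes were chosen with earlier results of these data known. The higher count is therefore a description and not independent support for a drug effect.

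Over the 8 genes, the median log2 change was 0.13 at the first time point, then 0.058, -0.0016 and, at the last, 0.18. The corresponding medians of the 11306 expressed genes were -0.051, -0.081, 0.063 and 0.044. More of the 8 genes were higher than lower with HU210 at 2 h (7 of 8), 4 h (7 of 8) and 8 h (8 of 8), and 4 of 8 were higher at 6 h. Among the expressed genes, 36%, 40.9%, 65.6% and 62.5% were higher in order of time. The counts after 2 h depended on the scale, since most of these changes were small. With the median ratio of each pair set to 0 on the log2 scale (centring), 8 of 8 were higher at 4 h, 0 of 8 at 6 h and 6 of 8 at 8 h, and with the 4 DMSO libraries averaged as the reference, 4 of 8 were higher at 4 h and 7 of 8 at 6 h. At 2 h the count was 7 of 8 under both. The median of the 8 genes was under that of the expressed genes at 6 h and over it at the other hours. Fosb and Fosl1 enter these counts with levels under 1 FPKM.

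**Figure D2:**
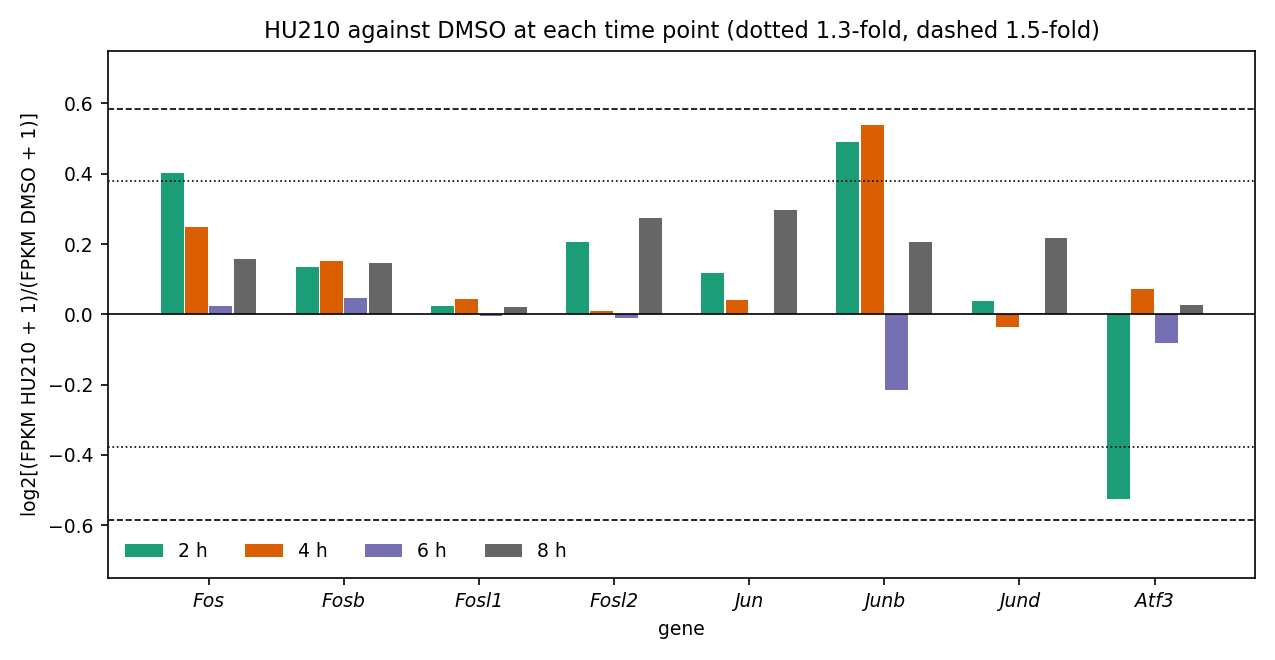
Change with HU210 against DMSO (vertical axis, log2 of the ratio of FPKM + 1) for each gene at 2, 4, 6 and 8 h (bars, 1 pair of libraries each), with dotted lines at 1.3-fold and dashed lines at 1.5-fold. Fos and Junb pass the dotted line upward and Atf3 passes it downward at 2 h, Junb passes it again at 4 h, and no bar reaches the dashed line.

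Fos, the founding member of its family (mm9 chr12:86814840-86818223, plus strand, 4 exons), had 2.70 FPKM with HU210 and 1.80 with DMSO at 2 h, 1.88 and 1.42 at 4 h, 1.83 and 1.79 at 6 h, and 1.83 and 1.54 at 8 h. All 4 HU210 libraries were above all 4 DMSO libraries, with the HU210 library of 2 h well above the other 3. The log2 changes were 0.40, 0.25, 0.023 and 0.16, and the change of 2 h stood at percentile 98.7 of the 11306 expressed genes. With HU210 at 2 h both Fos and Junb were above all 4 DMSO libraries, as were 15.8% of the expressed genes.

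Among the 11306 expressed genes, 42 (0.371%), Fos included, had all 4 HU210 libraries above all 4 DMSO libraries. For Fos the gap between the lowest HU210 and the highest DMSO library was 0.014 on the log2 scale. That gap closed, to -0.061, when each library was centred on its median, and to -0.053 when the trend of the levels with GC content and length of the transcript was removed, so the separation of the groups depended on small differences between libraries.

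Fosb, which encodes a further partner of Jun proteins and is known for its stable splice product in stimulated neurons (mm9 chr7:19888070-19895394, minus strand), was lower, with 0.493 FPKM with HU210 and 0.361 with DMSO at 2 h, 0.453 and 0.307 at 4 h, 0.460 and 0.414 at 6 h, and 0.459 and 0.318 at 8 h. The HU210 libraries again lay above all 4 DMSO libraries, and they differed among themselves by 1.09-fold against 1.35-fold among the DMSO libraries. Of the 2240 genes with a mean FPKM from 0.1 to 1, 14 (0.625%) had such an order. The log2 changes were small on the log2(FPKM + 1) scale, from 0.047 at 6 h to 0.15 at 4 h, and the gap of 0.040 became -0.037 with libraries centred on their medians. The table gives no read numbers, so the counting error of so low a level is unknown.

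Fosl1 (mm9 chr19:5447703-5455945, plus strand), which encodes Fra-1, an AP-1 subunit of growing and migrating cells, stayed near the limit of the table. It had 0.0415 FPKM with HU210 and 0.0243 with DMSO at 2 h, 0.0313 with HU210 and a listed 0 with DMSO at 4 h, 0.0224 and 0.0263 at 6 h, and 0.0410 and 0.0270 at 8 h. Differences at such levels, which enter the counts of directions, are too small to read. The gene overlaps Ccdc85b on the opposite strand. The study names a stranded library kit, but whether strand was used in counting is not given in the sources used here, so values of such overlapping genes are uncertain.

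Fosl2 (mm9 chr5:32438845-32460204, plus strand), which encodes Fra-2, was the main Fos family mRNA. It had 8.94 FPKM with HU210 and 7.61 with DMSO at 2 h, 8.38 and 8.31 at 4 h, 9.90 and 9.98 at 6 h, and 10.5 and 8.54 at 8 h. The groups overlapped, with log2 changes of 0.21, 0.0099, -0.0099 and 0.27. The libraries of 4 h and of 6 h were nearly equal between the arms, and its highest value was that of HU210 at 8 h.

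Jun (mm9 chr4:94715725-94718913, minus strand), a gene of 1 exon that encodes the target of the Jun N-terminal kinases, had 13.0 FPKM with HU210 and 11.9 with DMSO at 2 h, 11.9 and 11.5 at 4 h, 13.5 and 13.4 at 6 h, and 14.3 and 11.4 at 8 h. HU210 was the higher at each hour, as for Fos and Fosb and for 4.22% of the 15888 genes, but the groups overlapped. With each pair of libraries centred, the 6 h change was negative for all 3, at -0.060 for Jun, -0.040 for Fos and -0.016 for Fosb. The 4 h change of Jun was -0.019 against the averaged DMSO libraries and -0.067 without the trend on GC content and transcript length. The log2 change of Jun was 0.30 at 8 h, percentile 92.2 of the expressed genes, and at most 0.12 at the other hours. Its noncoding neighbour BC042782 overlaps it on the opposite strand, which leaves the same uncertainty as for Fosl1.

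Junb (mm9 chr8:87500811-87502617, minus strand), also of 1 exon, encodes a Jun protein that often opposes Jun in growth control. It had the widest range of the 8 genes on the log2(FPKM + 1) scale, with 30.1 FPKM with HU210 and 21.1 with DMSO at 2 h, 21.4 and 14.4 at 4 h, 19.9 and 23.2 at 6 h, and 21.7 and 18.7 at 8 h. With HU210 at 2 h it was above all other 7 libraries, and with DMSO at 4 h it was below all others. Its log2 changes were 0.49, 0.54, -0.21 and 0.21 in order of time. These stood at percentiles 99.2, 96.3, 5.94 and 84.0 of the expressed genes.

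The change of Junb at 4 h was taken against the lowest of its DMSO libraries. The DMSO libraries alone ranged over 1.61-fold for Junb, from 14.4 FPKM at 4 h to 23.2 FPKM at 6 h, which is wider than its change with HU210 at any hour. With all 4 DMSO libraries averaged as the reference, Junb changed by 0.63, 0.16, 0.058 and 0.18 on the log2 scale in order of time, so that its direction at 6 h turned. DMSO at 4 h was also the lowest of the 4 DMSO libraries for Fos, Fosb, Fosl1 and Atf3, and DMSO at 6 h was the highest of them for Fosb, Fosl2, Jun and Junb. The part of the control libraries in the changes was not tested.

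Jund (mm9 chr8:73221638-73224515, plus strand), of 1 exon and known as the Jun gene least responsive to stimuli, had 27.4 FPKM with HU210 and 26.7 with DMSO at 2 h, 21.6 and 22.2 at 4 h, 25.4 and 25.3 at 6 h, and 25.3 and 21.7 at 8 h. The arms stayed within a log2 change of 0.039 of each other up to 6 h and differed by 0.22 at 8 h, and the groups overlapped. Gm11175, annotated as protein-coding, overlaps Jund on the opposite strand.

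The libraries of 4 h differed in base composition. Over 10585 expressed protein-coding genes, Spearman's correlation across genes between the log2 change and the GC content of the longest transcript was 0.53 at 4 h, against 0.17 at 2 h and -0.30 and -0.15 at the later hours. Genes of 1 library pair are not independent replicates, so no p is given. With transcript length the correlation at 4 h was -0.23. The transcripts of Junb and Jund have a GC content of 62.6% and 62.7%, which is percentile 98.7 of the expressed genes with an annotated transcript. The fitted trend on GC content and transcript length together was 0.21 for Junb and 0.18 for Jund at 4 h. With the trend removed, the 4 h log2 change was 0.33 for Junb, under 1.3-fold, and -0.21 for Jund. The fitted trend at 2 h was 0.017 for Junb, -0.071 for Fos and -0.071 for Atf3.

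**Figure D3:**
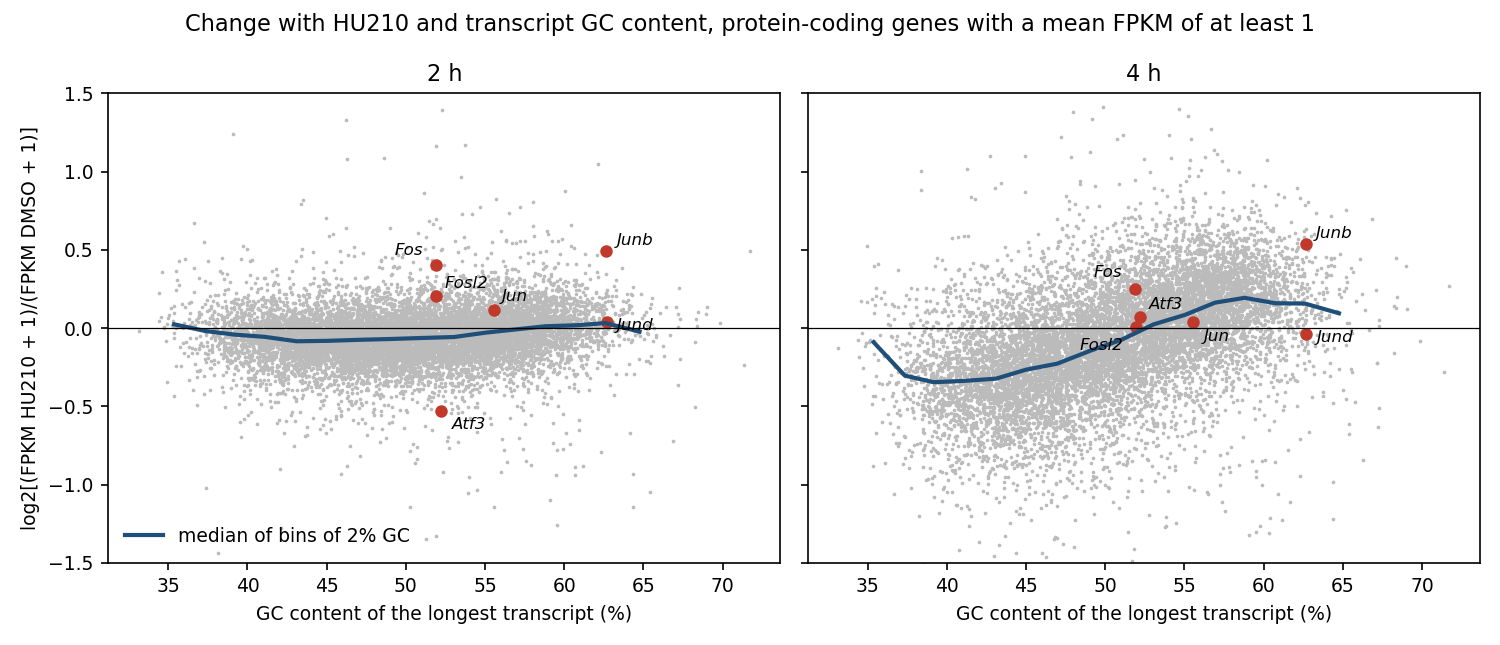
Change with HU210 (vertical axis, log2 of the ratio of FPKM + 1) against the GC content of the longest transcript (horizontal axis, percent) at 2 h and 4 h for 10585 protein-coding genes (grey points; those beyond 1.5 are outside the axis), with medians of bins as a line and the 6 tested members as labelled points. The line climbs with GC content at 4 h, where Junb lies at 62.6% GC and a log2 change of 0.54, and is flatter at 2 h, where Junb and Fos lie above it and Atf3 below it.

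Atf3 (mm9 chr1:192994175-193007219, minus strand, 4 exons), a repressor as a homodimer and an activator with Jun, had 5.53 FPKM with HU210 and 8.41 with DMSO at 2 h, 7.43 and 7.02 at 4 h, 6.73 and 7.18 at 6 h, and 9.91 and 9.70 at 8 h. With HU210 at 2 h it was the lowest of the 8 libraries, and 23.9% of the expressed genes were likewise below all 4 DMSO libraries there. The log2 change was -0.53 at 2 h, percentile 1.79 of the expressed genes, and lay between -0.082 and 0.072 later. Both arms were highest at 8 h. Thus at 2 h Atf3 was lower with HU210 while Fos and Junb were higher.

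The drug was then tested over the 4 time points with limma on log2(FPKM + 1), with the time point as a block, so that the hours serve as repeats and a drug effect that differs between hours adds to the error. Of the 11306 genes tested, 0 (0%) had an adjusted p (limma, Benjamini-Hochberg) under 0.05, and 148 (1.31%) had an unadjusted p under 0.05. Fosb and Fosl1 were under the filter on low values. The estimate was 0.21 ± 0.089 (SE, n = 4 pairs) for Fos, with a 95% confidence interval from -0.0093 to 0.42 and a limma p of 0.0577. For Junb it was 0.26 ± 0.14, with an interval from -0.082 to 0.59, for Fosl2 0.12 ± 0.084, for Jun 0.11 ± 0.081 and for Jund 0.056 ± 0.077. Atf3 had -0.13 ± 0.12. Leaving out 1 pair of libraries moved several of these estimates. Junb had 0.16 without the 4 h pair and 0.41 without the 6 h pair, where its unadjusted limma p was 0.0111 and its adjusted p 0.879. Without the 8 h pair, Jun had 0.053, Fosl2 0.069 and Jund 0.0022, and without the 4 h pair Jund had 0.086. Without the 2 h pair, Atf3 had 0.0058. The adjusted p of each of the 6 was 1.0 in limma and at least 0.879 under every alternative run. In the fit without the filter, Fosb had 0.12 ± 0.022 with a limma p of 0.00588 and an adjusted p of 1.

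**Figure D4:**
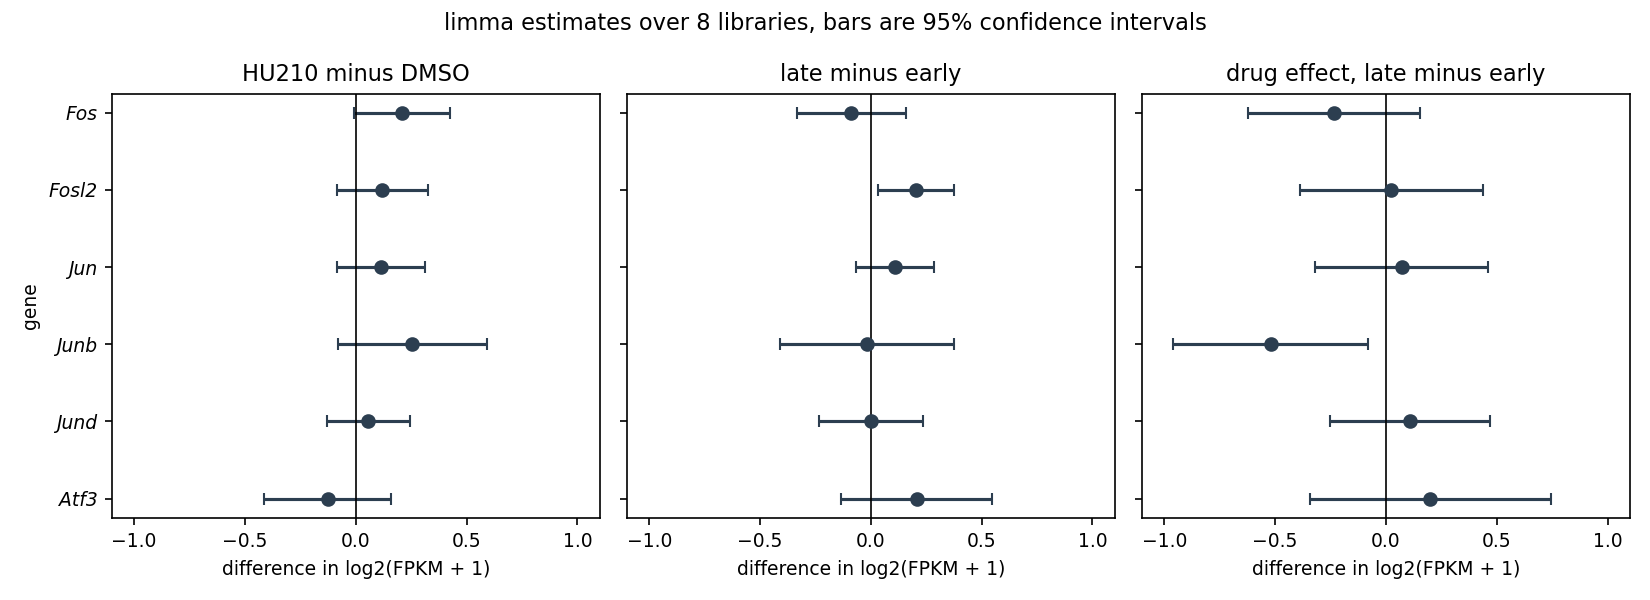
limma estimates (points, difference in log2(FPKM + 1)) with 95% confidence intervals (bars) over the 8 libraries for the 6 expressed members. The left panel shows HU210 minus DMSO, the middle panel 6 h and 8 h minus 2 h and 4 h, and the right panel the drug effect of the late hours minus that of the early ones. Intervals leave out 0 for Fosl2 in the middle panel and for Junb in the right panel, where the adjusted p was 0.659 and 0.258.

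Levels late (6 h and 8 h) were compared with levels early (2 h and 4 h) in both arms together, which asks how the genes moved with hours after the addition. This fit takes the HU210 and DMSO libraries of an hour as separate repeats, although they share that hour, so its p-values can overstate the replication. No gene passed an adjusted p of 0.05 in limma, with 815 of 11306 (7.21%) at an unadjusted p under 0.05. Fosl2 was 0.20 ± 0.076 higher late on the log2 scale (SE), with 9.90, 9.98, 10.5 and 8.54 FPKM late against 8.94, 7.61, 8.38 and 8.31 FPKM early, so that the groups overlapped. The unadjusted limma p of this difference was 0.0258 and the adjusted p was 0.659. Atf3 had 0.21 ± 0.15 and Jun 0.11 ± 0.077. The estimates of Fos, Junb and Jund were -0.088 ± 0.11, -0.017 ± 0.17 and 0.0011 ± 0.10.

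The difference in drug effect between late and early hours was tested as an interaction. In limma, 0 of 11306 genes passed an adjusted p of 0.05, and 1925 (17%) had an unadjusted p under 0.05, so that unadjusted p-values were common in this fit. The median of this difference over all genes tested was 0.12. Junb had -0.52 ± 0.18 (SE, 95% interval from -0.96 to -0.080), from changes of 0.49 and 0.54 early and -0.21 and 0.21 late. The unadjusted limma p was 0.0276 and the adjusted p 0.258. Over the 4 alternatives of this fit, its value lay between -0.67 and -0.52 and its adjusted p between 0.259 and 0.424. Fos had -0.24 ± 0.16 and an adjusted p of 0.462, and the other 4 members lay within 0.20 of 0.

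Across the 8 libraries the members did not follow each other in one pattern. Pearson's r of log2(FPKM + 1) was 0.92 between Fos and Junb and 0.89 between Fosl2 and Jun, and 0.15 between Fos and Fosl2. Atf3 was negatively correlated with Fos, at -0.58. The libraries share their arms and hours, and these values describe 8 points each. Each member was compared with the 2852 or 2853 other expressed genes whose levels ranged over at least 1.5-fold between libraries. Of these, the one most like Fos was Mafk, a small Maf factor of the same leucine zipper class, with r = 0.96 over 8 libraries. Mafk had 12.4 FPKM with HU210 and 9.21 with DMSO at 2 h, and 10.0 and 7.22 at 4 h, with log2 changes of 0.40 and 0.42, and of -0.083 at 6 h and 0.098 at 8 h. Col4a1 (0.96) and Doc2a (0.94) followed. The genes most like Junb were Col22a1 (0.97), Cchcr1 (0.97) and Gnb1l (0.96), those most like Jun were Anxa9 (0.96), Klf5 (0.95) and Ccdc163 (0.93), and those most like Fosl2 were Trim8 (0.93), Dram2 (0.91) and Il6 (0.91). For Jund, the nearest were Gm11531, Gm15974 and Rpl7-ps8, each with 0.95, and for Atf3 they included Gm9294 (0.96) and Urod (0.96). Rpl7-ps8 is named as a pseudogene and can share reads with its parent gene.

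Other genes of the pathway were followed in lists, each by its count past 1.5-fold, and no list member passed an adjusted p of 0.05 in any of the limma fits. Of 34 other immediate-early genes, 31 were listed at 2 h, and 5 of them were higher and 0 lower with HU210, against 0.691% of all genes higher by 1.5-fold. At 1.3-fold the count was 9 of 31 higher at 2 h and 10 of 31 at 8 h, against 1.61% and 3.72% of all genes. At 4 h, 3 of 31 were higher and 4 lower, where 6.61% of all genes were higher and 21.1% passed in either direction. At 6 h, 1 of 30 was higher and 2 were lower, where 5.14% of all genes were higher and 6.96% passed in either direction. Egr1, a zinc finger factor of the immediate-early class, had log2 changes of 0.97, 0.35, -0.47 and 0.74 over the 4 hours, and Egr3 had 1.05, 0.52, -0.62 and 0.48. The other 3 that were higher at 2 h, Egr2 with 0.69, Dusp6 with 0.64 and Arc with 0.60, are named although they fall outside the limit of 3 genes a list. Fos and Junb had the signs of Egr1 at 2 h, 4 h and 8 h, with smaller changes than Egr1 except for Junb at 4 h. Mcl1, a survival factor of the Bcl-2 family, was lower at 4 h, with -0.86, where its DMSO library was the highest of its DMSO libraries.

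Among 24 kinases and factors that act on Fos and Jun genes or proteins, all 24 were listed. By 1.5-fold, 1 was higher at 2 h, against 0.691% of all genes, and 4 were lower at 4 h, against 6.46%. The gene higher at 2 h was Elk4, a partner of serum response factor, with 11.1 FPKM with HU210 and 4.71 with DMSO. The DMSO libraries of 4, 6 and 8 h had 14.1, 11.1 and 12.0 FPKM. The HU210 value of 2 h thus lay within the DMSO range, and the change was taken against the lowest DMSO library. Elk4 had log2 changes of 1.09 at 2 h and -0.64 at 4 h. Mapk8, which encodes Jun N-terminal kinase 1, had -0.70 at 4 h, and Rps6ka3, which encodes the kinase Rsk2, had -0.90. Of 11 ubiquitin ligases and RNA decay factors, 3 were lower by 1.5-fold at 4 h, against 6.46% of all genes. They include Elavl1 with -0.70 and Hnrnpd, whose protein binds AU-rich elements such as those of Fos mRNA. Hnrnpd had 59.5 FPKM with HU210 and 179 with DMSO at 4 h, a log2 change of -1.58, and then 0.62 at 6 h. Its DMSO libraries of 2, 6 and 8 h had 99.9, 65.9 and 74.4 FPKM, all above the HU210 value of 4 h. DMSO at 4 h was the highest DMSO library for Hnrnpd, and also for Mapk8, Rps6ka3 and Elavl1. The part of the control libraries in these changes was not tested.

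Of 32 known AP-1 target genes, 22 were listed at each hour. At 4 h, 3 of them were higher by 1.5-fold, as were 2.16% of all genes, and 1 was lower, as were 6.46% of all genes. At the other hours 0 were higher and at most 1 was lower. Ccl2, a chemokine gene, had 5.55 FPKM with HU210 and 3.60 with DMSO at 2 h, 6.58 and 2.98 at 4 h, 3.84 and 7.20 at 6 h, and 5.11 and 3.71 at 8 h. Its log2 changes of 0.51, 0.93, -0.76 and 0.37 have the signs of those of Junb at each hour, with the DMSO library of that hour as reference. Plaur, the urokinase receptor gene, had 0.70 at 4 h, Tgfb1 had 0.62, and Fth1, the ferritin heavy chain gene, whose pseudogene copies can share its reads, had -0.81. DMSO at 4 h was the lowest DMSO library for Ccl2, Plaur and Tgfb1, and the highest for Fth1. With HU210 at 4 h, Ccl2 lay within the range of its DMSO libraries, Plaur and Tgfb1 above it and Fth1 below it. The part of the control libraries in these 4 h changes was not tested. Of the genes of the Jun and Atf3 response to nerve injury, 16 or 17 of 22 were listed at each hour. By 1.5-fold, 2 of 16 were lower at 4 h, Cap23 with -0.69 and Cd24a with -0.67, against 6.46% of all genes. DMSO at 4 h was the highest DMSO library of both, with 54.8 FPKM for Cap23 and 188 FPKM for Cd24a. Of the other leucine zipper partners (Batf, Jdp2, Atf2, Maf and Nfe2 families), 17 of 20 were listed at 2 h, and no expressed one passed 1.5-fold at any hour. Batf2, with a mean of 0.795 FPKM and named after its values were seen, passed it with -1.02 at 2 h, with -0.90 by 6 h and with 0.81 at 8 h.

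Markers of the cell line were present in all libraries. Of 18 sympathetic neuroblastoma markers, 16 were listed at 1 or more hours and 14 were expressed, with a summed level of 547 to 687 FPKM with HU210 and 569 to 643 with DMSO. Glial markers summed to 6.04 to 7.60 FPKM with HU210 and 6.22 to 7.45 with DMSO, with Mog under 0.1 FPKM. Fibroblast markers summed to 3.60 to 3.90 FPKM with HU210 and 3.52 to 3.79 with DMSO. Macrophage and endothelial markers reached at most 1.77 FPKM in sum, with Csf1r and Cdh5 under 0.1 FPKM. The ranges of these sums overlapped between the arms. Within pairs of libraries, 10 of 16 listed neuroblastoma markers were lower with HU210 at 4 h, 4 of them by 1.3-fold, and 13 of 14 were higher at 6 h, 4 of them by 1.3-fold. Among the expressed genes, 40.9% were higher at 4 h and 65.6% at 6 h, so most genes moved in the same directions. Of all listed genes, 21.1% passed 1.3-fold at 4 h in either direction together, with 6.61% higher, and 5.14% were higher by it at 6 h. At 6 h both marker counts, 13 of 14 and 4 of 14, lie above these shares. The cause of this was not tested.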

How the data were processed

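One mRNA library was made for each of 8 conditions (HU210 or DMSO, at 4 time points). The authors mapped reads to mm9 with TopHat 2.0.8 on bowtie 2.1.0, with samtools 0.1.7, using Ensembl gene models and no search for new junctions, per the labels and the study's methods. FPKM were deposited by the authors from Cufflinks and Cuffdiff, run with upper-quartile normalization and with corrections for fragment bias and for reads of several origins, and with 1 added, which was subtracted here. The log2 fold changes, p-values and q-values that the authors deposited, and their second table of called genes, were not used. No read counts were used, so depth per gene is unknown.

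Levels were analysed as log2(FPKM + 1). Genes were keyed by Ensembl ID, since 6 symbols have 2 IDs. limma 3.58.1 (R 4.3.3, lmFit and eBayes with trend) was fitted to 11306 genes with a mean FPKM of at least 1, with a Benjamini-Hochberg threshold of 0.05, to the drug (time point as block, 3 residual degrees of freedom), late against early hours (5) and their interaction (2). Libraries pool experiments and hours stand as repeats, so p-values measure only the spread between these libraries. In data simulated on these 11306 genes, with the same SD for every gene and independent noise, the fits were given genes changed by 0.5 on the log2 scale. The drug fit called 98% of them, the late against early fit 96% and the interaction fit 19%. Real genes differ in spread and the libraries hold shared trends, which the simulation left out. These shares therefore do not tell how many such changes the fits would find in these data.

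All members are named, and of each other list at most the 3 expressed genes with the largest change among those past 1.5-fold, besides the 3 genes most correlated with a member among expressed genes with a range of at least 1.5-fold. Some genes that the rule would name are not reported here. Egr2, Dusp6, Arc, Tgfb1 and Batf2 fall outside this rule and were named after their values were seen. The members and lists were chosen with earlier results of these data known. Positions, lengths and GC content come from GENCODE vM1 (mm9), and the trend with GC content and length was fitted by lowess with a span of 0.3 (statsmodels 0.14.6, Python 3.11.15). Alternatives were a pseudocount of 0.1, a fold of 1.3, other filters on low values, centring, the mean of the 4 DMSO libraries as reference, removal of that trend, eBayes without trend, no block, hours as a linear term, and leaving out libraries. Those on the separation of all 4 HU210 from all 4 DMSO libraries were added after seeing the data.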

Additional observations from a re-analysis of the deposited data

How the results depend on the processing

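No gene was called by limma in any fit or alternative, with 80 to 1925 genes at an unadjusted p under 0.05. The fit with no replicate block gave 91 such genes for the drug against 148, and it changed no call. The numbers of genes past 1.5-fold, 334, 1428, 396 and 293 at 2, 4, 6 and 8 h, were 949, 2508, 1190 and 988 with a pseudocount of 0.1, and 811, 3494, 1139 and 852 at 1.3-fold. They were 113, 637, 160 and 111 after removal of the trend with GC content and transcript length, over fewer genes, and 269 at 4 h and 237 at 6 h against the mean DMSO library. The count of members past the limit at 2 h, 0, became 1 with a pseudocount of 0.1 (Atf3, -0.60), 3 at 1.3-fold and 1 against the mean DMSO library (Junb, 0.63). At 4 h it became 1 at 1.3-fold and 1 with the pair centred (Junb, 0.62). Fos had a gap between the arms of -0.061 with centring and -0.053 without the trend, and Fosb had -0.037 with centring and 0.0033 without the trend. Leaving out a pair of libraries gave gaps of 0.014 to 0.020 for Fos and 0.040 to 0.095 for Fosb, the last without the pair of 6 h. Of the members' changes at single hours, 7 of 32 turned sign with the pair centred, 6 of 32 against the mean DMSO library and 5 of 24 without the trend, none of them at 2 h. At 2 h, 3 members passed 1.3-fold in each of these settings. The limma estimates that turned, none of which passed the threshold, were the drug effect of Atf3 (-0.19 to 0.0058 on leaving out a pair, the last without 2 h), the late against early difference of Fos (-0.15 to 0.0083 on leaving out libraries, the last without HU210 at 2 h), of Junb on leaving out libraries (-0.17 to 0.13) and of Jund (-0.075 to 0.063 on leaving out libraries, -0.012 centred, -0.020 with hours as a linear term), and the centred interactions of Fosl2 (-0.12), Jun (-0.076) and Jund (-0.039). The cause of these turns was not tested. Without the 4 h pair, 396 genes had an unadjusted drug p under 0.05 in limma and the smallest adjusted p was 0.0832. With 1 library per condition and no read counts, no error can be given for a change at a single hour.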
